A study of Mus musculus with 4 samples.

Results

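Early resting DP thymocytes are CD4+CD8+ cells of the thymus that have stopped dividing and carry the recombinase. The name gives no measured order in time, since a minimum count of 5 genes alone separates them from other resting DP cells. Early cells were chosen from droplet single-cell RNA sequencing by raw UMI counts (unique molecular identifiers, each standing for 1 captured transcript) in each cell. A cell was kept if it had at least 200 genes, at least 1000 UMIs and no more than 10% mitochondrial UMIs. An early resting DP cell then had at least 1 UMI of Rag1 or Rag2, at least 2 UMIs of Cd4, Cd8a and Cd8b1 together, and none of the cycling genes Top2a, Mki67, Pclaf, Nusap1 and Cdc20. It also had at most 1 UMI of the selection genes Itm2a, Cd69 and Egr1, under 4 UMIs of 6 interferon genes, and at least 2 UMIs of Tubb2b, Insl5, Slc7a11, Mirt1 and Capn3 together. This gave 7663 cells of 33597 kept and 57354 deposited cells, 22.8% of the kept ones.

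The study compared thymocytes of control mice (labelled Tox4;F/F, and WT in their titles) with those of cKO mice (labelled Tox4;F/F;Lck+), with 2 libraries in each group, named by the replicate number of their labels. All groups carried the floxed Tox4 alleles, a line made in C57BL/6 eggs, and per the study's methods the mice were sex-matched littermates 6 to 8 weeks old. The cKO mice also carried Lck-Cre, whose proximal Lck promoter is active from the DN3 stage, before the DP stage. The comparison asks what loss of Tox4, a nuclear DNA-binding protein, changes at each step of T cell development. By the study's account the libraries come from 2 pairs of control and cKO mice, and neither it nor the labels say that the replicate numbers mark the pairs. The p-values measure the spread between these libraries.

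DP thymocytes arise when cells with a rearranged TCRβ chain divide as DP blasts and then come to rest. At rest they re-express Rag1 and Rag2, whose products cut DNA at the V, D and J segments, and rearrange the TCRα locus, first with V and J segments that lie close to each other and then with more distant ones. Rearrangement ends with positive selection, when the finished receptor signals and CD69 appears, or with death of the cell.

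Early resting DP cells numbered 1297 in control 1, 2617 in control 2, 1243 in cKO 1 and 2506 in cKO 2, and their UMIs summed to 4144417 to 7965134 per library. Median depth per early cell was 3262, 2778, 3112 and 2378 UMIs, again with both controls first. More deposited cells exceeded the mitochondrial limit in control 1 (48.3%) and cKO 1 (46.1%) than in control 2 (20.6%) and cKO 2 (23.1%). Pairs of libraries shared 9 to 31 barcodes among kept cells, and early cells shared 7 over all pairs. Between 3.94% and 5.31% of early cells lay among the 5% of kept cells with the highest doublet score of their library.

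The nearest population for comparison was the other resting DP cells, which met every limit above except that they had under 2 UMIs of the 5 genes. They numbered 639, 1101, 487 and 1521 in control 1, control 2, cKO 1 and cKO 2. Also set beside them were 7574 DP blasts, with at least 2 UMIs of the cycling genes, and 1080 DP cells under selection, with no UMI of the cycling genes and at least 2 of the selection genes. Values of a population are UMIs summed over its cells in a library, scaled to a total of 1000000 UMIs (CPM). Since measured values chose the cells, differences between these populations are described without a test.

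Tubb2b encodes a β-tubulin, the subunit of microtubules. Its level in early cells was 400.3 CPM in control 1, 445 CPM in control 2, 532 CPM in cKO 1 and 461 CPM in cKO 2. DP blasts had 125 to 157 CPM, other resting DP cells 44.2 to 58.4 CPM and DP cells under selection 90.5 to 166 CPM. Slc7a11 encodes the transporter that brings cystine into the cell for glutathione synthesis. It reached 454 and 672 CPM in control and 569 and 718 CPM in cKO early cells, against 96.4 to 168 CPM in DP blasts and 54.6 to 105 CPM in other resting DP cells. Insl5, a peptide hormone of the insulin and relaxin family, was at 88.3 and 95.5 CPM in control and 127 and 121 CPM in cKO early cells, while no blast population exceeded 15.5 CPM and no other resting population 17.1 CPM. Mirt1, a long noncoding RNA, was at 161 and 188 CPM in control and 205 and 223 CPM in cKO early cells, and Capn3, a calcium-dependent protease best known from muscle, at 209 and 171 CPM in control and 142 and 116 CPM in cKO early cells. All 5 genes were higher in early cells than in blasts, other resting cells and cells under selection of the same library, a description, since only early cells had to hold 2 UMIs of them.

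**Figure D1:**
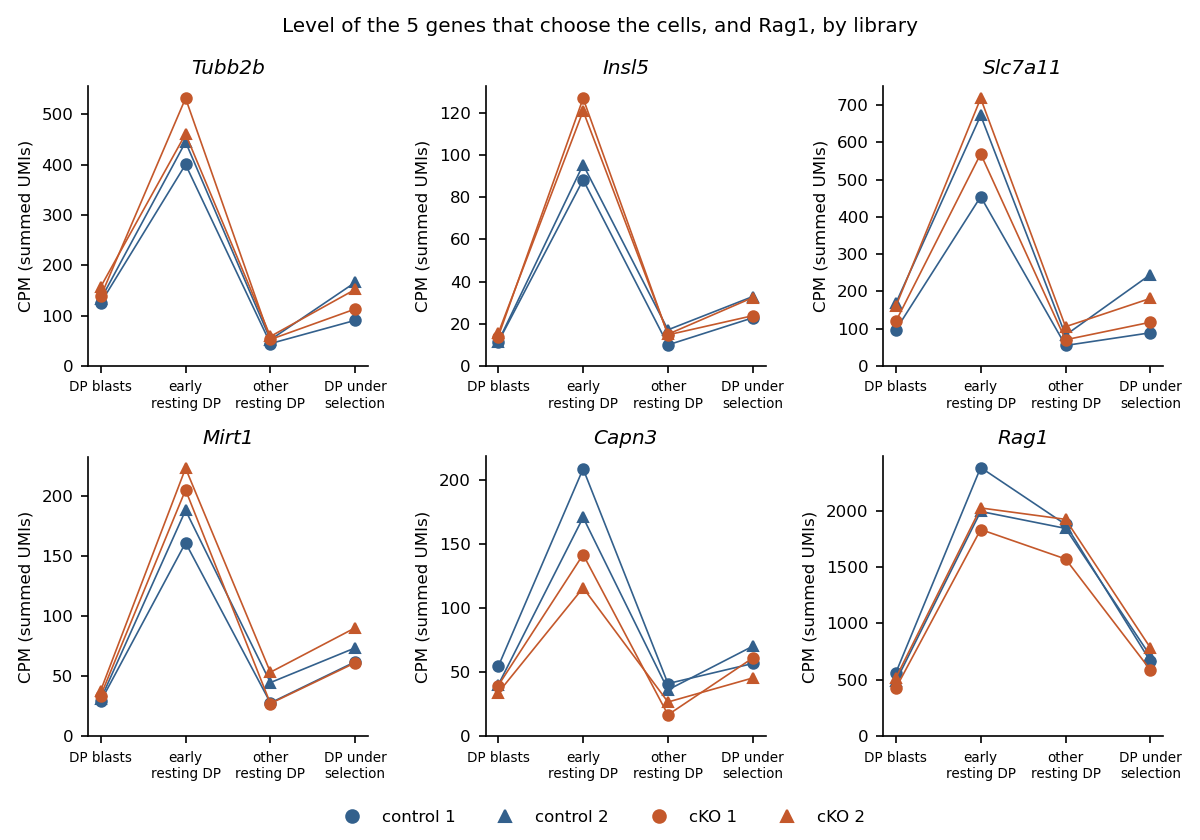
Level (CPM, linear axis from 0) of the 5 genes that chose the cells, and of Rag1, in DP blasts, early resting DP cells, other resting DP cells and DP cells under selection; each point is 1 library and lines join the populations of a library. In all 4 libraries each of the 5 genes peaks in early cells, the one population that had to hold 2 UMIs of them, and Rag1 is at 1832 to 2381 CPM in early and 1571 to 1922 CPM in other resting DP cells.

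The 5 genes were seen together in few cells. In control 1, 13.9% of early cells had UMIs of 1 of the 5 genes only, 42.9% of 2, 29.1% of 3, 11.7% of 4 and 2.39% of all 5. The median early cell held 4 UMIs of the 5 genes in control 1, control 2 and cKO 1 and 3 in cKO 2, and the highest held 26 to 31. Slc7a11 gave 34.6% to 43.8% of these UMIs, Tubb2b 28.1% to 33.8% and Insl5 6.08% to 8.09%. Just inside the limit, 350, 677, 278 and 742 early cells had exactly 2 UMIs, 22.4% to 29.6% of them. Just outside it, 358, 640, 259 and 859 resting DP cells had 1 UMI, and 281, 461, 228 and 662 had none.

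UMIs of these genes also occur in other cell types. The shares of cells with a UMI were therefore set beside those of macrophages and mature T cells. Macrophages had at least 5 UMIs of C1qa, C1qb, C1qc, Csf1r and Adgre1 together, and whether they make Slc7a11 or Tubb2b themselves was not tested. Mature T cells had no UMI of Rag1, Rag2, the cycling genes or these macrophage genes. They also had at least 3 UMIs of Ccr7, S1pr1 and Klf2 together, with no T cell gene required. Leaving out cells with Rag UMIs can lower the shares in mature T cells. Slc7a11 was seen in 71.3% to 79.4% of early cells, in 17.2% to 22.9% of other resting DP cells and in 2.42% to 6.62% of mature T cells, whose median depth of 4240.0 to 6416 UMIs was higher. In macrophages, with a median of 1571 to 2627 UMIs, it was seen in 13.8% to 25.3%, a range that covers the other resting DP cells. When each cell was thinned to 1000 UMIs, the shares were 35.2% to 50.0% of early cells, 7.60% to 11.5% of other resting cells and 6.08% to 8.79% of macrophages. Tubb2b was seen in 30.1% to 36.0% of early cells, 5.01% to 6.77% of other resting cells and 8.29% to 15% of macrophages at 1000 UMIs, and in 2.35% to 4.73% of mature T cells. The share of other resting cells with Tubb2b, which the rule limited, was below that of macrophages and above that of mature T cells in each library, while that with Slc7a11 was above that of macrophages in all libraries but control 1.

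Depth also decides which resting cells reach the limit of 2 UMIs. Other resting DP cells had a median of 2825, 2391, 2650.0 and 2057 UMIs, below the early cells of the same library in each case. With all cells thinned to 1000 UMIs before the choice, 658, 1264, 726 and 1368 cells were early. The number of genes per cell at 1000 UMIs was close in both populations, with medians of 681, 677, 666 and 666 in early and 683, 682, 664 and 670.0 in other resting cells.

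The bases in front of the transcription start of these genes are shown because the genes were chosen for being high together. RefSeq windows (GRCm38.p6) of 250 bases before a start were at hand for Insl5, Slc7a11, Mirt1 and Capn3, the first and the last of them with a pair of starts each. They were searched on both strands for the nuclear receptor half-site AGGTCA, the E-boxes CAGCTG and CAGGTG and the amino acid response element TGATGNAA, where N is any base. Of 32817 windows in the RefSeq table, 14%, 13%, 17.2% and 3.45% held each in that order. The capitals mark the match, and each line gives 30 bases 5′ to 3′ on the strand of the gene.
Slc7a11, chr3:50443661-50443690, minus strand, match 66 to 59 bases before the start: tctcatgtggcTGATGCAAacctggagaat
Slc7a11, chr3:50443642-50443671, minus strand, match 47 to 40 bases before the start: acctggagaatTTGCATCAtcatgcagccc
Capn3, chr2:120476846-120476875, plus strand, match 52 to 45 bases before a start: accgtgttcatTTGCATCAagctgctgagg
Capn3, chr2:120463367-120463396, plus strand, match 214 to 209 bases before its other start: atttctggtgttCAGCTGtctcagacactc
Insl5, chr4:103027326-103027355, minus strand, match 72 to 67 bases before a start: tatgcctcagtaCAGGTGagcgccagggct
Mirt1, chr19:53464923-53464952, minus strand, match 144 to 139 bases before the start: tgtttcccccagCAGGTGactcagcaggcc
Slc7a11 thus held the response element at 2 places in opposite orientation and Capn3 at 1, and no window of the 4 genes held AGGTCA. A match is a string of letters and was not tested as a binding site.

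Genes that the choice of cells did not use also differed between early and other resting DP cells. Of 5844 genes with at least 20 CPM in every library of early or of other cells, 16.7% (975) were higher and 14.8% (867) lower in early cells in all 4 libraries. The differences were small, and the median log2 ratio over these genes, with 1 CPM added, was 0.01. Leaving out the genes of the rule, 24 genes were higher by a median log2 ratio of at least 0.5 and 45 were lower by as much. Against all 3 comparison populations, 577 of 5679 genes, 10.2%, were highest in early cells in all 4 libraries.

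After the 5 genes themselves, Phlda1, a gene of the pleckstrin homology-like family, had the largest ratio. It was at 87.2, 80.9, 105 and 93.9 CPM in early cells of control 1, control 2, cKO 1 and cKO 2 and at 48.6, 33.0, 51.7 and 47.3 CPM in other resting cells, a median log2 ratio of 0.99, with 84.9 to 116 CPM in blasts. H1fx, a linker histone variant, had a ratio of 0.98 and was highest in blasts (42.9 to 101 CPM against 20 to 40.6 CPM in early cells). Tubb2a, the neighbouring β-tubulin gene whose sequence is close enough to Tubb2b that reads may be split between them, had 169 to 225 CPM in early and 104 to 126 CPM in other resting cells, a ratio of 0.76. Nrp1, a semaphorin and VEGF co-receptor, followed at 0.74, and Sytl3 and Sytl1, which encode Rab27-binding proteins of vesicle traffic, at 0.71 and 0.64. P3h4, of the collagen prolyl hydroxylase complex, and BC028471 had ratios of 0.77 and 0.63, and the noncoding genes Gm15558 and Gm22146 0.74 and 0.67. P3h4, Tubb2a, Gm15558, Sytl3, Sytl1 and BC028471 were highest in early cells of all 4 populations in every library, and Phlda1, H1fx, Nrp1 and Gm22146 were not.

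The 15 genes with the largest ratio in the other direction were all higher again in cells under selection. Igfbp4, a binding protein of insulin-like growth factors, was at 10.5, 8.29, 9.41 and 9.61 CPM in early cells and at 60.5, 26.1, 58.7 and 22.6 CPM in other resting cells, a median log2 ratio of -1.98. Other resting cells of control 1 and cKO 1 stood well above those of control 2 and cKO 2, whereas the early cells of the 4 libraries were close together. Tesc, a calcineurin-like calcium-binding protein, followed at -1.86, then Ms4a4b, a membrane protein of T cells, at -1.73 and Ccnd2, encoding cyclin D2, at -1.73. Klf2, the transcription factor that opens the way out of the thymus, was at 24.4 to 33.8 CPM in early, 47.3 to 118 CPM in other resting and 145 to 163 CPM in selected cells. The MHC class I gene H2-K1 (-1.53), the survival gene Bcl2 (-1.17), Id2 (-1.06), the tetraspanin gene Cd53 (-1.53), Klk8 (-1.56), Ifi27l2a (-1.28), Gm20559 (-0.99), Tmsb10 (-0.97), Shisa5 (-0.94) and Vim (-0.88) completed the 15 with the largest ratio, each higher in selected than in early cells in all 4 libraries. Rag1 was seen in 46.4% to 48.4% of macrophages, so 1 UMI of Rag1 or Rag2 does not by itself mark a DP cell. Whether more mature cells are among the other resting cells was not tested.

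Some of these genes were followed over the number of UMIs of the 5 genes in a resting cell, as a description, since they were chosen on the split of these cells. Tubb2a went from 94.8 to 118 CPM in cells with 0 UMIs, through 126 to 183 CPM at 2 UMIs, to 301 to 362 CPM at 10 or more. Klf2 moved unevenly, and in control 1 went from 152 CPM at 0 UMIs to 12.2 CPM at 2 and 50.1 CPM at 10 or more. Phlda1 went from 26.2 to 35.4 CPM at 0 UMIs to 172 to 218 CPM at 10 or more. In the other direction, Tmsb10, encoding the actin-binding thymosin β, fell from 1413 to 3559 CPM at 0 UMIs to 494 to 1033 CPM at 10 or more. Trac, the constant part of TCRα, went from 598 to 893 CPM at 0 UMIs to 348 to 475 CPM at 10 or more. Bcl2 stood at 47.2 to 243 CPM at 0 UMIs and at 36.7 to 55.6 CPM at 1 UMI, so its highest value in each library lay in cells without any UMI of the 5 genes. Depth moved with these bins, from a median of 2042 to 2718 UMIs at 0 to 3369 to 4327 UMIs at 10 or more; its part in the pattern was not tested.

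**Figure D2:**
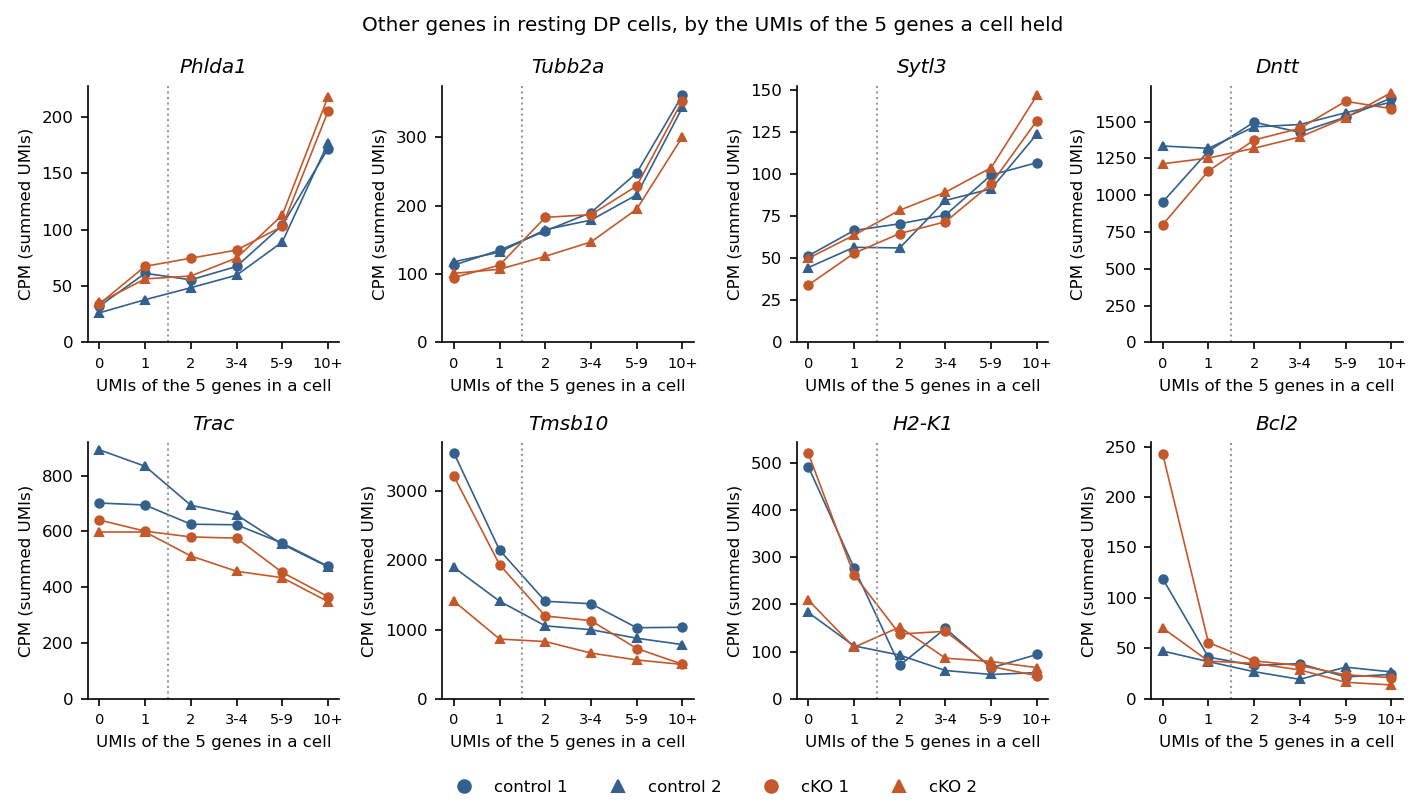
CPM (linear axes from 0) of 8 genes that did not choose the cells, in resting DP cells grouped by how many UMIs of the 5 genes a cell held; each point is the sum over the cells of 1 library and the dotted line marks the limit between other (left) and early (right) resting DP cells. Phlda1, Tubb2a, Sytl3 and Dntt rise and Trac, Tmsb10, H2-K1 and Bcl2 fall to the right in every library between the first and the last group.

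By function, genes of recombination and end joining are described first. Of the list's 12 members with at least 20 CPM, which include Rag1 and Rag2, 6 were higher and 0 lower in all 4 libraries, with a median log2 ratio of 0.15 beside 0.01 for all genes. Dntt, which adds untemplated bases at V(D)J junctions, was at 1501, 1522, 1524 and 1441 CPM in early and 1150.4, 1326, 993 and 1236 CPM in other resting cells, and it was highest in early cells of the 4 populations in each library. The end-joining genes Xrcc6 and Lig4 both had a ratio of 0.34. Rag1 and Rag2, which the rule used in both populations at the same limit, had ratios of 0.17 and 0.21.

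Of 21 transcription factors of the T lineage, 7 were higher and 6 lower in early cells in all 4 libraries. Tcf7, a factor of T cell commitment, had a ratio of 0.22 and the E protein gene Tcf12 0.20, whereas Id2, an inhibitor of E proteins, had -1.06, Tox -0.34 and Lef1 -0.26. Bcl2l1, encoding Bcl-xL, the survival protein of DP cells, was at 163 to 194 CPM in early and 126 to 162 CPM in other resting cells, a ratio of 0.33, opposite to Bcl2. Among G1 regulators, E2f2 (0.53) and Ccnd3 (0.29) were higher in early cells and Ccnd2 lower (-1.73), and 5 and 3 of 11 members were higher and lower in all 4 libraries.

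Proliferation genes outside the rule were at or below the level of other resting cells where all 4 libraries moved one way. Of 11 members, 0 were higher and 5 lower in early cells in all 4 libraries, with a median ratio of -0.14, and Mcm2 (-0.28) and Mcm3 (-0.26), of the replicative helicase, were the lowest. Of 8 interferon response genes 0 were higher and 5 lower, with a median of -0.50, and of 24 genes of proximal TCR signalling 3 were higher and 6 lower, led by Cd2 (-0.62) and Cd5 (-0.62). Glycolysis had 2 higher and 6 lower of 12, with Eno1 at -0.32. The high level of Slc7a11 was not shared by the rest of the cystine and glutathione list, of which 2 of 13 were higher and 2 lower. Its partner chain Slc3a2 had a ratio of 0.26, and Gclm and Gclc, which make glutathione, -0.32 and -0.21. Of 8 tubulin and stathmin genes other than Tubb2b, 2 were higher and 4 lower, and Tuba1b, at 1373 to 1678 CPM in blasts, was at 86.3 to 148 CPM in early and 103 to 224 CPM in other resting cells.

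The remaining lists are given by their counts. In all 4 libraries, 5 of 12 genes of the TCR, CD3 and coreceptor list were higher and 2 lower, 4 and 4 of 12 survival genes, 5 and 1 of 11 p53 targets, 6 and 2 of 11 cytochrome c oxidase subunits, 1 and 1 of 7 genes of the Tox family and the PNUTS-PP1 complex, 4 and 2 of 25 RNA polymerase II elongation genes, 0 and 3 of 8 selection genes and 1 and 1 of 7 homing receptors. Beside them stand 16.7% higher and 14.8% lower over all genes, and several of these lists lie near those shares. Early cells held little RNA of DN markers, whose sum was 115 to 216 CPM, and Notch1 was the single member of the list at 20 CPM in every library of either population. Both B cell markers at that level, Ighm (0.37) and Cd79b (0.32), were higher in early cells in all 4 libraries, and of 2 macrophage and 4 dendritic cell markers 0 were higher and 1 and 0 lower.

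TCRα transcripts also differed. Trac was at 588, 610.3, 504 and 455 CPM in early cells, at 698, 858, 620.1 and 598 CPM in other resting cells and at 205 to 261 CPM in blasts, and it was lower in early than in other resting cells in each library. The 128 Trav genes in the files were ordered by position on chromosome 14, and the 44 nearest Trac gave 76.1% (95% exact binomial interval 72.2% to 79.8%), 71.3% (68.1% to 74.3%), 78.0% (73.0% to 82.5%) and 83.2% (79.7% to 86.4%) of Trav UMIs in early cells of control 1, control 2, cKO 1 and cKO 2. In other resting cells they gave 62.5% (54.9% to 69.7%), 62.5% (56.3% to 68.5%), 63.0% (52.8% to 72.4%) and 66.4% (59.9% to 72.5%), and in blasts 82.7% to 85.9%. Every library thus had a larger part of near segments in early than in other resting cells, on 309 to 835 and 100 to 259 Trav UMIs, and the intervals cover counting error only. Many Trav genes have near-identical copies, so the split among them is uncertain. Between genotypes the share in early cells differed by 6.92 percentage points, higher in both cKO libraries (exact permutation test, two-sided, p = 0.333, the smallest that 2 against 2 libraries allow).

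Next, the share of early cells was compared between genotypes. Among kept cells, early cells were 22.3% (21.3% to 23.4%) in control 1, 29.8% (28.8% to 30.8%) in control 2, 18.0% (17.1% to 18.9%) in cKO 1 and 20.7% (20% to 21.4%) in cKO 2. Both cKO libraries were below both control libraries, by 6.73 percentage points on average (exact permutation p = 0.333). With cells thinned to 1000 UMIs the shares were 11.3% and 14.4% in control and 10.5% and 11.3% in cKO, so that control 1 and cKO 2 were equal within counting error. The SD between the 2 controls was 5.28 points and that between the 2 cKO libraries 1.93 points. Early and other resting cells together were 33.4% and 42.3% of control and 25.0% and 33.3% of cKO kept cells, and other resting cells alone were 11% and 12.5% against 7.05% and 12.6%, values that overlap. Among resting DP cells alone, early cells were 67.0% and 70.4% in control and 71.8% and 62.2% in cKO, and the groups overlapped (difference -1.65 points, exact permutation p = 1). Thinned, that share was 27.5% and 32.7% in control and 33.8% and 31.8% in cKO. Blasts made up 22.3% and 16.2% of kept control cells and 29.3% and 23.4% of kept cKO cells.

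**Figure D3:**
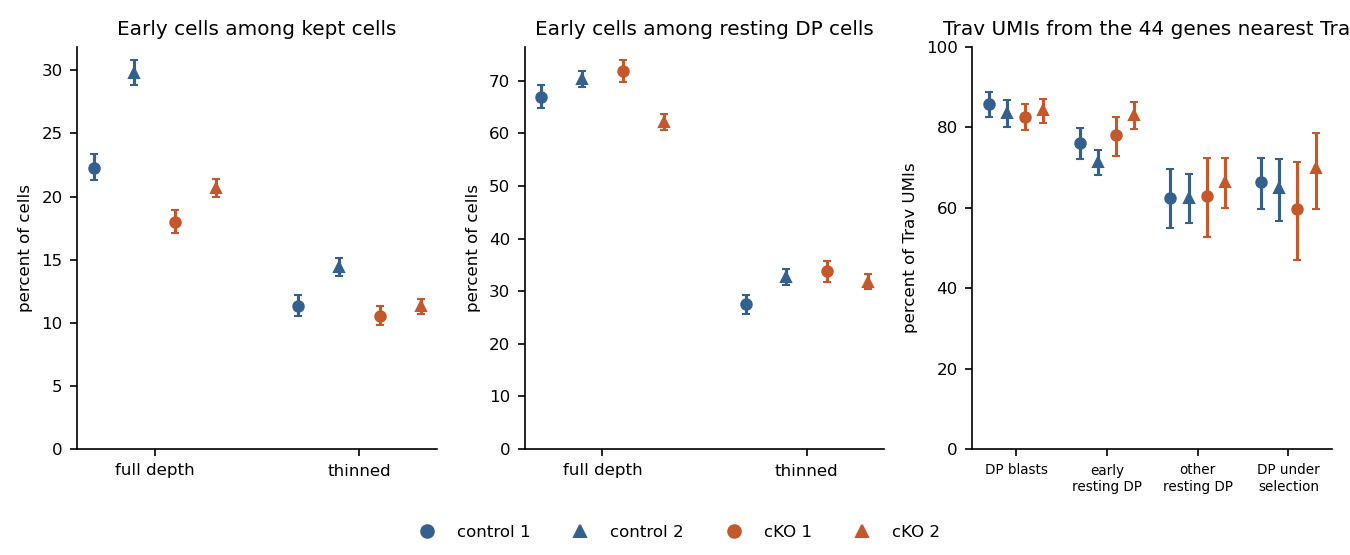
Left and middle, early resting DP cells as percent of kept cells and of resting DP cells, at full depth and with every cell thinned to 1000 UMIs; right, percent of Trav UMIs from the 44 Trav genes nearest Trac in 4 populations. Points are single libraries, bars are 95% exact binomial intervals; early cells are 22.3% and 29.8% of kept control cells against 18.0% and 20.7% of cKO cells, and 11.3% and 14.4% against 10.5% and 11.3% with thinned cells.

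The effect of the genotype within early cells was then tested on UMIs summed per library, with edgeR's quasi-likelihood test and Benjamini-Hochberg adjustment over all genes tested. The targeted gene is not a check of the deletion here. The methods name exons 4 to 6 as floxed, and this library type reads the end of the transcript, which lies in exon 10, so that transcripts of a deleted allele are still counted. Tox4 was at 76.5 and 80.4 CPM in control and at 65.1 and 70.0 CPM in cKO early cells, with both cKO values below both control values (edgeR, log2 difference -0.17, SE 0.11, adjusted p = 0.595).

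Of 10854 genes tested, 41 were called at an adjusted p under 0.05, 0.378%, with 25 higher and 16 lower in cKO. The median log2 fold change of all genes was 0.00, and 1353 genes had an unadjusted p under 0.05. For all 41 genes the values of both cKO libraries lay on one side of both controls, which held for 44.3% of all genes tested. None of the genes used to choose the cells was among them, an outcome that the limits on those genes partly fixed. With the replicate number as a block 604 genes were called, the 41 among them. The number of calls depends on the libraries, from 19 without cKO 2 to 245 without control 1, and of the 41 genes 11 were still called without cKO 2, 21 without cKO 1, 40 without control 1 and 41 without control 2. Without 1 library a group has 1 sample, whose spread is assumed to be that of the other group, so these counts are values and no measure of stability.

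**Figure D4:**
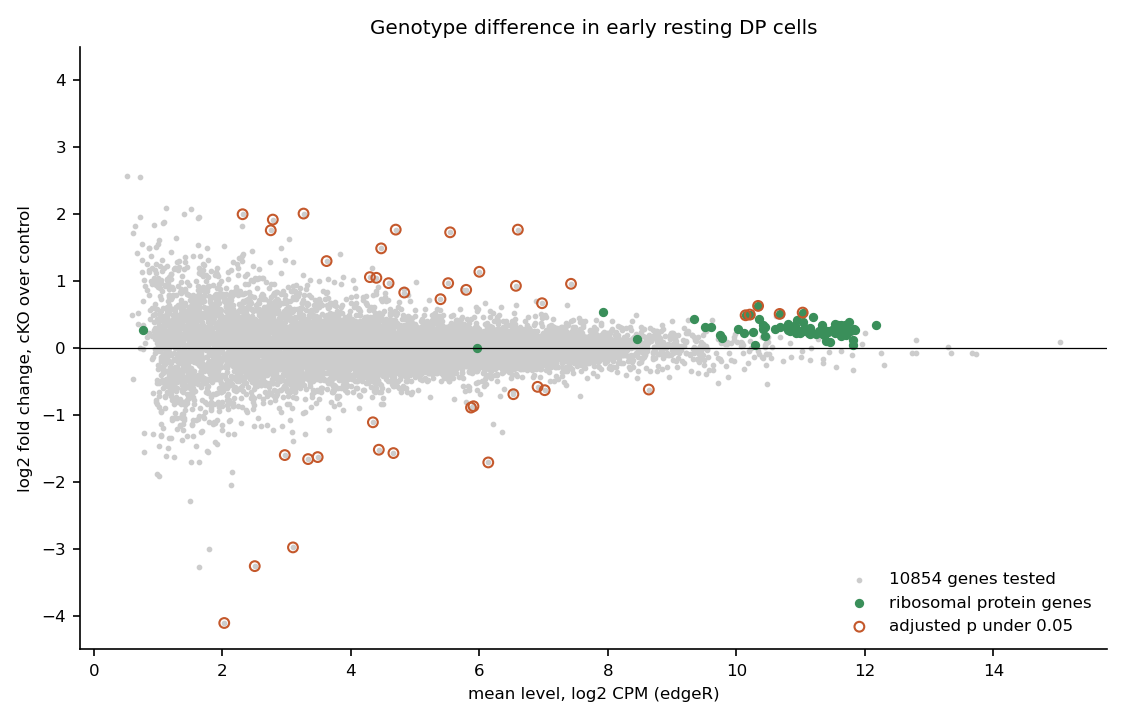
Log2 fold change (cKO over control) against mean level (log2 CPM) of 10854 genes in early resting DP cells; circles mark the 41 genes with an adjusted p under 0.05 and green points ribosomal protein genes. Called genes lie on both sides of 0, the ribosomal protein genes lie at or above it, and 4 globin genes, high in cKO 1 alone, fall outside the drawn range.

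Among the genes lower in cKO, Gm32004, a noncoding transcript of chromosome 13 (107524061 to 107565331, GRCm38), had the smallest adjusted p. It was at 106 and 109 CPM in control and at 35.5 and 28.8 CPM in cKO early cells (log2 fold change of -1.71 with an SE of 0.13, adjusted p = 0.000948). Without a replicate block it was also the single gene called in other resting DP cells, at -1.72 (SE 0.19, adjusted p = 0.045). With the block 364 genes were called there, and at a mitochondrial limit of 5% 0 were. Blasts had 11.5 and 10.5 CPM of Gm32004 in control and 4.84 and 3.81 CPM in cKO. The control and cKO values of this gene lay far apart in every resting population.

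The largest drops of called genes were in genes with few UMIs. Drc1, of the dynein regulatory complex of cilia, was at 10.7 and 16.4 CPM in control and 2.41 and 1.22 CPM in cKO (-2.98, SE 0.38, adjusted p = 0.0144). Klk1, a kallikrein protease, had 42 and 41 UMIs in control and 0 and 4 in cKO, and Ly6c2, a surface protein of memory T and myeloid cells, 38 and 79 UMIs in control and 0 and 10 in cKO. Both have close paralogs, so their counts are uncertain. In other resting cells the groups overlapped for Klk1, with 11.4 and 0.726 CPM in control and 9.79 and 0.602 CPM in cKO. Cdkl1, a cyclin-dependent kinase-like gene, was at 13.8 and 15.1 against 5.79 and 3.51 CPM, Rbm24, an RNA-binding splicing factor, at 14 and 17.7 against 4.58 and 5.34 CPM, and Bex2 at 12.9 and 9.79 against 3.62 and 3.51 CPM. Smoc1, a matricellular protein, was at 41.2 and 34.1 CPM in control and 8.69 and 14.8 CPM in cKO, and Car2, a carbonic anhydrase, at 21.3 and 39.3 against 10.4 and 10.7 CPM. Eef1akmt2, a methyltransferase of the elongation factor eEF1A, was at 27.0 and 27.4 against 14 and 10.8 CPM.

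The other 6 lower genes fell by 0.58 to 0.89 on the log2 scale and had more UMIs. Gtf2h4, a subunit of the general transcription and repair factor TFIIH, was at 461 and 514 CPM in control and 308 and 308 CPM in cKO (-0.62, SE 0.09, adjusted p = 0.0302). Xrra1 was at 73.2 and 81.6 against 43.9 and 38.9 CPM, Rab4b, a GTPase of endosome recycling, at 108 and 121 against 66.4 and 71.1 CPM, Cnn3, an actin-binding calponin, at 155 and 161 against 100.1 and 99.0 CPM, and BC065403, annotated as an antisense RNA, at 71.6 and 79.7 against 40.8 and 39.0 CPM. Mir142hg, the host transcript of a microRNA of blood cells, was at 145 and 145 against 97.0 and 90.9 CPM. Xrra1, Gtf2h4, BC065403 and Gm32004 were higher in early control cells than in the blasts of both control libraries. Xrra1, BC065403, Casc1, Fbxl22 and Rps25 overlap genes on the opposite strand with 2138 to 8365 UMIs in early cells, against at most 158 for the opposite-strand partners of other called genes. The strand setting of the counting is not given in the sources used here, so the values of these 5 genes are less certain.

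Genes higher in cKO included Gzma, encoding granzyme A, a protease of cytotoxic granules. It was at 50.0 and 40.2 CPM in control and 170.3 and 127 CPM in cKO early cells (log2 fold change 1.77, SE 0.16, adjusted p = 0.00227). DP blasts, which had 187 and 169.5 CPM in control and 306 and 336 CPM in cKO, were above early cells in both genotypes, and other resting cells had 73.0 and 24.7 CPM in control and 77.6 and 68.3 CPM in cKO. Notch1 and Notch3, receptors of the pathway that drives T cell commitment and is shut down in DP cells, were both called. Notch1 was at 70.8 and 62.4 CPM in control and 127 and 118 CPM in cKO (0.93, SE 0.12, adjusted p = 0.0144), and Notch3 at 11.8 and 15.3 against 24.4 and 30.8 CPM (1.05, SE 0.19, adjusted p = 0.0474). These were 2 of 9 DN-stage markers tested, beside 0.230% of all genes called higher. The others did not pass, and Il2ra, which encodes the IL-2 receptor α-chain (CD25) of DN2 and DN3 cells, was at 11.4 and 6.78 against 8.20 and 9.61 CPM. The DN markers summed to 162 and 115 CPM in control and 216 and 201 CPM in cKO, with Notch1 the most abundant, and the part of other cells' RNA in this was not tested.

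Myc, the growth regulator, was at 14 and 10.3 CPM in control and 41.5 and 24.7 CPM in cKO early cells (1.49, SE 0.26, adjusted p = 0.0397), with 69.3 and 49.8 CPM in control and 79.8 and 63.5 CPM in cKO blasts. It was the single called gene of 16 tested G1 regulators. Cdkn1a, the p21 inhibitor of cyclin-dependent kinases in the same list, had 3.07 and 2.39 against 7.24 and 6.56 CPM and did not pass (1.40, SE 0.33, adjusted p = 0.110). Ikzf2, encoding the transcription factor Helios, was at 132 and 106 CPM in control and 229 and 218 CPM in cKO (0.96, SE 0.12, adjusted p = 0.0144), and Itga4, the integrin α4 chain, at 96.6 and 100.1 against 142 and 161 CPM (0.67, SE 0.11, adjusted p = 0.0324). Ikzf2 was 1 of 13 tested selection genes and Itga4 1 of 11 tested homing receptors, and no other member of either list passed. Over all genes tested 0.230% were called higher, and 1 call in lists this short is given as a value of that gene and not of its list.

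Tspoap1, an adaptor of the mitochondrial translocator protein, had the largest rise of the called genes (2.01, SE 0.25, adjusted p = 0.0144). It was at 3.29 CPM in control 1, 4.27 CPM in control 2, 16.4 CPM in cKO 1 and 14.2 CPM in cKO 2. Casc1 followed at 2.41 and 1.63 against 7 and 8.08 CPM and Ly6c1, a close paralog of Ly6c2, at 2.41 and 3.14 against 8.20 and 12.3 CPM. Fbxl22, an F-box protein of muscle, was at 8.76 and 14.3 CPM in control and 30.9 and 47.3 CPM in cKO, and Nwd1, a protein with NACHT and WD repeat domains, at 38.8 and 42.1 against 76.7 and 95.8 CPM. The noncoding genes Gm41600 (13.8 and 28.5 against 77.2 and 66.0 CPM), Gm39822 (3.07 and 3.01 against 8.45 and 11.3 CPM) and Gm30373 (7.01 and 7.28 against 17.4 and 16.9 CPM) completed the 10 largest. Col27a1, Kcna2, Ptpn14, Ctu2, Rpl10-ps3 and Wdr89 rose by 0.73 to 1.06.

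**Figure D5:**
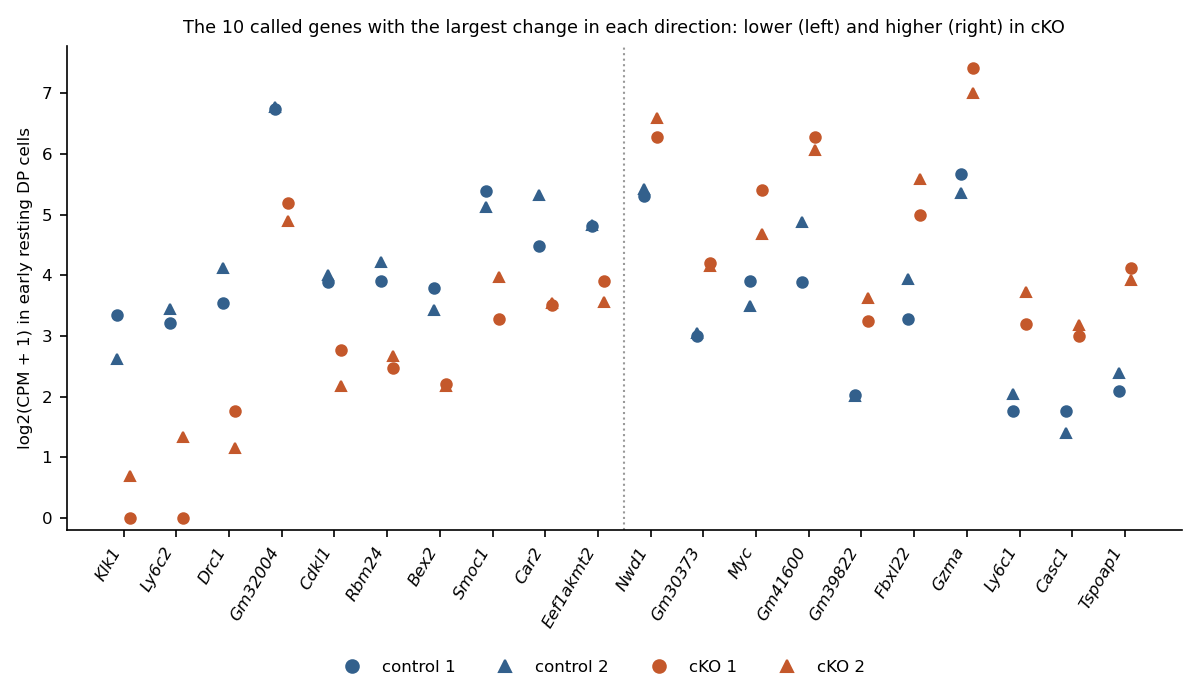
Level in early resting DP cells, as log2(CPM + 1), of the 10 called genes with the largest fall (left of the dotted line) and the 10 with the largest rise (right) in cKO; each point is 1 library. The genotypes are separate for all 20 genes, and Klk1 and Ly6c2 are at 0 in cKO 1.

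Of 81 ribosomal protein genes tested, 5 were called higher in cKO and 0 lower. This list was added after those 5 had been seen among the calls, so its counts are a description. Rpl23a was at 966 and 1095 CPM in control and 1455 and 1631 CPM in cKO (0.63, SE 0.09, adjusted p = 0.0302), and Rplp2, Rps15 and Rps25 were also called, at 0.50 to 0.53. All 81 fold changes were at or above 0.00, with a median of 0.27, where 50.0% of all genes tested were above 0. The count of called members ranged from 1 without cKO 1 to 66 with a replicate block, and was 2 without cKO 2, 19 with DESeq2 and 38 without a filter on low counts. For 70 of the 81, both cKO values were above both control values, as for 16.9% of all genes. Ribosomal protein UMIs made up 16.6% and 16.0% of all UMIs in control and 19.6% and 18.6% in cKO early cells (exact permutation p = 0.333). In blasts the shares were 22% and 22.6% against 24.6% and 24.7%, and in other resting cells 17.8% and 15.3% against 20.6% and 17.7%. Mature T cells had 30.2% and 29.6% in control and 29.7% and 29.5% in cKO.

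The list of 12 TCR and coreceptor genes includes Cd4, Cd8a and Cd8b1, which the choice of cells used. Over the 12, 10 fold changes were below 0 and the median was -0.22, a description. Of the members outside the rule, 0 were called. Cd8a was at 1925 and 1492 CPM in control and 1194 and 1079 CPM in cKO, Cd8b1 at 2955 and 2719 against 2445 and 2267 CPM and Cd4 at 737 and 685 against 600.3 and 698 CPM. The choice of cells used the sum of these 3 genes at a limit of 2 UMIs, so their values are a description, with no test. Trbc1 was at 4085 and 4047 against 3257 and 3024 CPM (-0.33, SE 0.08, adjusted p = 0.116) and Trbc2, its near-identical neighbour, at 6775 and 7307 against 6800 and 6222 CPM. Trac had a fold change of -0.28 (SE 0.09, adjusted p = 0.259).

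Of the 5 genes that chose the cells, Insl5, Mirt1 and Tubb2b were higher and Capn3 lower in both cKO libraries than in both control libraries, while Slc7a11 overlapped. Since the rule needs 2 UMIs of their sum, they were tested over all resting DP cells, chosen without them. There Capn3 gave -0.55 (SE 0.14, adjusted p = 0.153), Insl5 0.43 (SE 0.13, adjusted p = 0.233), Mirt1 0.30 (SE 0.13, adjusted p = 0.427), Tubb2b 0.25 (SE 0.14, adjusted p = 0.554) and Slc7a11 0.20 (SE 0.18, adjusted p = 0.734), and none passed. Of 12 alternative settings, Capn3 passed in 5 (adjusted p from 1.09e-06 to 0.492), Insl5 in 2 (0.00281 to 0.664), Mirt1 in 1 (0.0205 to 0.876), Tubb2b in 1 (0.0441 to 0.926) and Slc7a11 in 0. In that fit 26 of 11488 genes, 0.226%, were called.

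Of the 19 genes of the recombination list in the fit, the choice of cells used Rag1 and Rag2, and 0 of the others were called. Hmgb1 and Rag1 were the most abundant members of the list. Hmgb1, a DNA-bending protein that assists the recombinase, was at 2723 and 2885 CPM in control and 2529 and 2323 CPM in cKO, and Dntt gave 0.02 (SE 0.08, adjusted p = 0.955). T-lineage factors had 0 of 21 called, with Satb1, a chromatin organiser of DP cells, at 3404 and 3272 against 2548 and 2775 CPM (-0.28, SE 0.08, adjusted p = 0.171) and Bcl11b at 1618 and 1511 against 1686 and 1704 CPM. The mitotic genes Cdk1, Ccnb1, Ccnb2 and Ccna2 were at 9.04 to 26.3 CPM in every library and had fold changes of 0.65, 0.36, 0.40 and 0.62 with adjusted p of 0.296 to 0.602. Of 13 alternative settings, Cdk1 passed in 3 (lowest adjusted p 0.00288), Ccna2 in 2 (0.0166), Ccnb2 in 1 (0.0264) and Ccnb1 in 0. Of 23 proliferation genes, 0 were called, 20 were above 0, and the median was 0.29.

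In the fit reported here no member passed in 10 further lists, for each of which the 2 most abundant members are given. Their medians were 0.03 over 24 genes of proximal TCR signalling (Lck -0.09, Ptprc 0.11), 0.02 over 15 survival genes (Mcl1 -0.21, Bcl2l1 -0.13), 0.13 over 16 p53 targets (Btg2 -0.21, Trp53inp1 0.20) and 0.01 over 15 glycolysis genes (Gapdh -0.14, Ldha 0.05). They were 0.11 over 16 cystine and glutathione genes (Slc38a2 -0.11, Gpx4 -0.06), -0.04 over 10 tubulin and stathmin genes (Tubb5 -0.01, Stmn1 0.22), 0.12 over 13 cytochrome c oxidase subunits (Cox4i1 0.21, Cox7c 0.12) and 0.16 over 15 interferon genes (Bst2 0.40, Igtp 0.03). The Tox family and PNUTS-PP1 complex, to which Tox4 belongs, had -0.02 over 8 genes (Ppp1ca -0.04, Ppp1cc 0.00), and the elongation factors of RNA polymerase II 0.00 over 27 (Supt4a -0.06, Rtf1 0.17).

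Marker genes of other cells were also seen in early cells, and their sums overlapped between genotypes for macrophage, dendritic and epithelial markers. The 10 macrophage markers summed to 191 and 369 CPM in control and 285 and 285 CPM in cKO, with the defining gene Csf1r at 0.219 to 1.88 CPM. The 7 B cell markers summed to 519.9 and 475 CPM in control and 582 and 521 CPM in cKO, both cKO values above both controls. Ighm made up 399 to 517 CPM of these sums. The 8 dendritic cell markers summed to 203 to 286 CPM, with Itgax at 0 UMIs in control 1 and cKO 1, and the 6 epithelial markers to 36.5 to 65.0 CPM. The 6 erythroid markers summed to 19.3 and 15.3 CPM in control, 2175 CPM in cKO 1 and 42.4 CPM in cKO 2. In cKO 1, 2 early cells with over 100 globin UMIs each held 98.9% of the 9008 globin UMIs of the 4 genes Hbb-bs, Hbb-bt, Hba-a1 and Hba-a2.

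The genotype effects in early and other resting cells were compared last, by the stage by genotype interaction in edgeR with library as a block. Both effects come from the same 4 libraries, so likeness between them is no independent support. In other resting cells 1 of 9770 genes was called, 0.0102%, and 571 had an unadjusted p under 0.05. That count depends on the fit, with 364 calls with the replicate number as a block, beside 604 in early cells. With cells thinned to 1000 UMIs it was 86, beside 61 in early cells. The 41 genes called in early cells had a median absolute log2 fold change of 1.06 there and 0.70 in other resting cells. Other resting cells numbered 3748 against 7663 early cells. A value chosen for passing a threshold tends to be larger there than elsewhere. The interaction called 4 of 10740 genes, 0.0372%, the globin genes above, and 323 had an unadjusted p under 0.05. Gzma had the smallest unadjusted interaction p of the called genes, with 1.77 in early and 0.65 (SE 0.37) in other resting cells, a difference of 1 (SE 0.24, adjusted p = 0.685). Ikzf2 differed by 0.43 (SE 0.11) and Klk1 by -3.69 (SE 1.18), each with an adjusted p of 1. Apart from globin, no difference of genotype effects between early and other resting DP cells passed the test, although that of Gzma passed in 6 of 13 alternative settings and that of Klk1 in 3 of the 11 that gave it a value (lowest adjusted p 6.02e-06).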

How the data were processed

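Thymocyte libraries (10x Genomics Chromium 3ʹ kit, version 3) were counted by the authors with cellranger count 6.1.1 on GRCm38 (mm10), default parameters, and the deposited matrices hold raw UMI counts of 32285 features per called cell, not normalized or pooled. Their total count was 42716798 to 62007453 per library. The study's filters on genes and mitochondrial UMIs were kept, its UMI outlier filter was an alternative, removal of the 5% highest Scrublet scores was tried in place of its DoubletFinder step, and a limit of 1000 UMIs was added. Counts were summed per library and population. Because cells are not replicates, sums were tested with edgeR 4.0.16 (R 4.3.3; quasi-likelihood test, TMM factors, filterByExpr, genotype as the single term), called at a Benjamini-Hochberg adjusted p under 0.05; DESeq2 1.42.0 was an alternative. Shares have 95% exact binomial intervals (scipy 1.17.1), for counting error only. Fits were tested on simulated data. Ratios between populations used 1 CPM as pseudocount. Scrublet (scanpy 1.11.5) scored doublets at an expected rate of 8%. Named genes were fixed genes, list members, the 10 called genes with the largest change per direction and the 15 with the largest stage ratio per direction. Other called genes, Cdkn1a, the ribosomal list and the marker genes of other cells are also named. Members and lists were chosen with earlier results of these data known. Positions follow GENCODE M21. Some single genes are not reported here.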

Additional observations from a re-analysis of the deposited data

Results flagged for a closer look

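The 4 globin genes were the ones whose genotype effect differed between early and other resting DP cells by the interaction test (edgeR, library as a block). The difference, early minus other, was 7.58 on the log2 scale for Hbb-bt, 6.32 for Hbb-bs, 7.14 for Hba-a1 and 6.71 for Hba-a2, with adjusted p of 5.40e-08, 0.00295, 7.20e-07 and 1.34e-05. With DESeq2 none of them was called. With cells thinned to 1000 UMIs the difference was 1.30 for Hbb-bs, 1.21 for Hba-a1 and 0.75 for Hba-a2, none called. Globin was high in few cells. Early cells held 88 and 121 globin UMIs in control 1 and 2 and 9008 and 276 in cKO 1 and 2, and in cKO 1 the 2 cells with over 100 of them held 98.9%. Other resting cells held 20152 in control 1, of which 3 cells had 99.8%, and 58, 6344 and 168 in control 2, cKO 1 and cKO 2. Hba-a1 and Hba-a2 are near-identical, so the split between them is uncertain. Single cells thus decided the sums, and no explanation was tested.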

How the results depend on the processing

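All 41 genes called in early resting DP cells kept their direction under every alternative that gave them a value, and Gm32004, Gzma, Ikzf2 and Notch1 had an adjusted p under 0.05 in all 13. Leaving out 1 library leaves a group of 1 sample, assumed to vary like the other group. Of the 41, 29 were still called with DESeq2, 10 at a mitochondrial limit of 5%, 22 with thinned cells, 35 with at least 3 UMIs of the 5 genes and 11 to 41 without single libraries. The number of calls in early cells was 41, and 362 without a filter on low counts, 67 with DESeq2, 604 with a replicate block and 13 with a mitochondrial limit of 5%; it ranged from 19 to 245 when each library was left out. In other resting cells it was 1, and 58 without the filter, 2 with DESeq2, 364 with the block, 0 at the 5% limit, 86 with cells thinned to 1000 UMIs and 0 to 71 without single libraries. The interaction gave 4, and 11 without the filter, 0 with DESeq2, 17 with the block and 6 to 33 without single libraries. Without control replicate 1 the globin effects were -0.29 (Hbb-bs), -1.17 (Hba-a1), -1.30 (Hba-a2) and 1.35 (Hbb-bt). Without other single libraries their highest values were 8.03, 8.41, 8.51 and 8.63. The stage by genotype difference of Gzma, not called above, had an adjusted p under 0.05 in 6 of 13 alternatives, that of Klk1 in 3 of 11, and over all resting cells Capn3 in 5, Insl5 in 2 and Mirt1 and Tubb2b in 1 of 12; in early cells Cox6a2 passed in 5, Cdk1 in 3, Ccna2 in 2 and Ccnb2 in 1 of 13. The cause was not tested. The difference in the share of early cells among kept cells was -6.73 points, -1.96 with thinned cells and -10.5 to -2.99 without single libraries; among resting cells it was -1.65, with 2.71 on thinning, 1.10 at the 5% limit and -6.46 to 3.16 without single libraries.

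The labels give both groups replicates 1 and 2, and the study describes pairs of control and cKO mice without tying the numbers to them. The deviations of same-numbered libraries had r = 0.24 over 6192 genes of early cells (across genes, which are not independent), so whether the numbers mark the pairs remained unsettled, and the fits without and with the block are both given. All 41 called genes were also called with the block. With 2 libraries per group, no permutation test can go below p = 0.333. Which cells are early depends on depth, since thinning left 658 to 1368 per library.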

Other observations

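Of the 41 called genes, Mir142hg and Tspoap1 were direct neighbours. Mir142hg lies on chromosome 11 from 87755577 to 87757270 and Tspoap1 from 87760541 to 87785928, on the same strand, with 3270 bases and no other gene of the files between them. In cKO early cells Mir142hg fell by 0.58 and the gene behind it, Tspoap1, rose by 2.01 on the log2 scale. In blasts Mir142hg was at 44.8 and 44.9 CPM in control and 32.5 and 31.1 CPM in cKO, and Tspoap1 at 3.29 and 6.07 against 17.0 and 20.4 CPM. The pair was chosen after its values were seen. Ly6c1 and Ly6c2, which moved in opposite directions, lie 59327 bases apart on chromosome 15 with 1 gene between them and are close paralogs.

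Cox6a2, the muscle-type subunit of cytochrome c oxidase, was uneven among early cells and was chosen after its values were seen. It was at 14.9 and 2.89 CPM in control and 18.8 and 21.3 CPM in cKO (edgeR log2 fold change 1.41, SE 0.47, adjusted p = 0.259), and passed in 5 of 13 alternative settings, with adjusted p from 6.19e-17 to 1. In cKO 1 and cKO 2 it stood at 4.44 and 3.47 CPM in resting cells with no UMI of the 5 genes and at 52.1 and 77.2 CPM in those with 10 or more. In control 2 it stayed at 0.873 to 4.46 CPM over these groups, and in control 1 at 0 to 7.01 CPM apart from 37.9 CPM in cells with 3 or 4 UMIs.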
